A study of Mus musculus with 4 samples.

Results

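Mouse embryonic fibroblasts (MEFs), connective-tissue cells grown from embryos, were profiled for mRNA, and 8 genes of adipogenesis and lipid uptake are described here: Pparg, Cebpa, Cebpb, Cebpd, Fabp4, Lpl, Cd36 and Scd1. The genes were chosen by name, with earlier results of these data known. Every gene probe whose name in the scanner files is one of the 8 was kept, which gave 14 probes for 8 of 27745 gene names on the array. The cultures were CycG1-/- MEFs (G1KO) with a CycG1+/+ wild type (WT), and CycG2-/- MEFs (G2KO) with a CycG2+/+ WT, all with the strain C57BL/6J in the strain field, although the source name of the G2KO pair reads C57BL/7J. Names of the deposited data carry a population doubling level, which differs between the cultures of the G1KO pair and is not given for G2KO, and its part in the ratios was not tested. CycG1 and CycG2 are the cyclins G1 and G2, encoded by Ccng1 and Ccng2, and per the study's methods the G1KO allele lacks every protein-coding exon of Ccng1. All 4 cultures were in logarithmic growth in DMEM with serum and antibiotics, and the labels name no adipogenic inducer. Each genotype was 1 culture. Knockout and WT RNA of a pair were hybridised together on 2 arrays with the dyes Cy5 and Cy3 exchanged, and the dye swap counts as 1 replicate per genotype. No difference given here therefore has a biological replicate or a p-value, and each ± is a technical SD over 2 arrays. Where cultures of different pairs are compared, it is the SD of 2 differences, 1 in each dye.

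Adipogenesis, the conversion of a fibroblast-like precursor into a fat cell, is driven by a cascade of transcription factors. C/EBPβ and C/EBPδ (Cebpb, Cebpd) act early and activate Pparg and Cebpa, whose products PPARγ and C/EBPα maintain each other and switch on the genes of the fat cell. Fabp4, Lpl and Cd36 are well-known targets of PPARγ: Lpl frees fatty acids from circulating triglycerides, Cd36 takes them up at the cell surface, and Fabp4 carries them inside the cell. Scd1 makes monounsaturated fatty acids. MEFs can be differentiated into fat cells with a hormone mixture, and Pparg, Lpl and the C/EBP genes are also transcribed to some extent in fibroblasts that were never induced.

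Of the 8 genes, 4 have a promoter window in the RefSeq table used here (GRCm38.p6), with 6 windows in all: 3 for Pparg and 1 each for Cebpa, Cebpb and Cd36. The windows of Pparg are shown because it has 3 starts but a single probe, and because other members encode the C/EBP factors that act on it. Which of the starts the probe reads was not analysed. The 250 bases before the middle and the most downstream start, on the plus strand at chr6:115362099-115362348 and chr6:115421816-115422065, are printed 5′ to 3′. Capitals mark matches, on either strand, to a C/EBP-type motif (TTNNGCAA), the CCAAT box (CCAAT) and the TATA box (TATAAA), none of which overlap.
Pparg, middle start: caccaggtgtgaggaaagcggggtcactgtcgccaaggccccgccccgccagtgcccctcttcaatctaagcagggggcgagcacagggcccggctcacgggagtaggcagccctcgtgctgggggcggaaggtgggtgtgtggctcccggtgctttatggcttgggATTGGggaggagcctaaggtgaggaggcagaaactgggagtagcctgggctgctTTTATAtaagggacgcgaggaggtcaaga
Pparg, most downstream start: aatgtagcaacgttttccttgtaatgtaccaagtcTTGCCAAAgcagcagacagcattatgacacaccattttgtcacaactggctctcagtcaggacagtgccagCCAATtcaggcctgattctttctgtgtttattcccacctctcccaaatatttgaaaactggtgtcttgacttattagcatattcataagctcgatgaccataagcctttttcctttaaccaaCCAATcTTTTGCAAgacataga
The most downstream window held 2 C/EBP-type matches, one 215 to 208 and one 16 to 9 bases before the start, and 2 CCAAT boxes. The middle window held a TATA box read on the opposite strand, 29 to 24 bases before the start, and 1 CCAAT box. The C/EBP-type letters were in none of the other 5 member windows. The Cebpa window held a TATA box 30 to 25 bases before its start, the Cd36 window a CCAAT box, and the Cebpb window and the most upstream Pparg window none of the 3 motifs. Across 32851 windows of this length in the table, 9.6% held the C/EBP-type motif, 33.8% a CCAAT box and 12.4% a TATA box. A match is a description of the letters.

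Ratios are log2 of knockout over WT, so that 1 is 2-fold. A probe was measured where it was well above background on both arrays in at least 1 genotype of the pair, and called where each array alone gave a log2 ratio of 1 or above, or each gave -1 or below. Each channel had 25366 to 27757 of 43379 gene spots well above background, and the technical SD over all measured probes was 0.131 (G1KO) and 0.129 (G2KO). At its brighter probe Ccng1 had a log2 ratio of -6.67 ± 0.13 in G1KO, while Ccng2 had 0.09 ± 0.27 in the RNA labelled G2KO, so its single probe did not check that label, and whether the probe lies in the deleted part is not given in the sources used here. Ccng1 was called higher in that RNA at each of its probes, at 2.67 ± 0.03 and 2.49 ± 0.04. G2KO stands below for the RNA so labelled. Both knockout RNAs held Xist (log2 ratios of 7.54 and 7.24 at its brightest probe), and the Y-linked Eif2s3y was at least 82.3-fold and 51.2-fold lower than in WT. Knockout and WT thus differed in sex as well as genotype in both pairs, and sex, culture and genotype cannot be told apart in any result below.

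In G1KO, 10 of the 14 member probes, for 7 of the 8 genes, were measured and none was called, against 5.79% of all 25541 probes measured in that pair. Member log2 ratios at the brightest probe ran from -0.83 for Cebpb to 0.48 for Scd1, with a median of 0.01 against 0.00 over all measured probes. In the RNA labelled G2KO, 11 probes of the same 7 genes were measured and 4 were called, all lower, for Fabp4 and Lpl. The background was 6.37% of 25430 measured probes called in either direction and 4.06% called lower. The median of the 7 genes was -0.63, against -0.01 over all measured probes. The plot of ratios by array shows that the arrays of a pair lay close together for nearly every member beside the distance of Fabp4 and Lpl from 0.

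**Figure D1:**
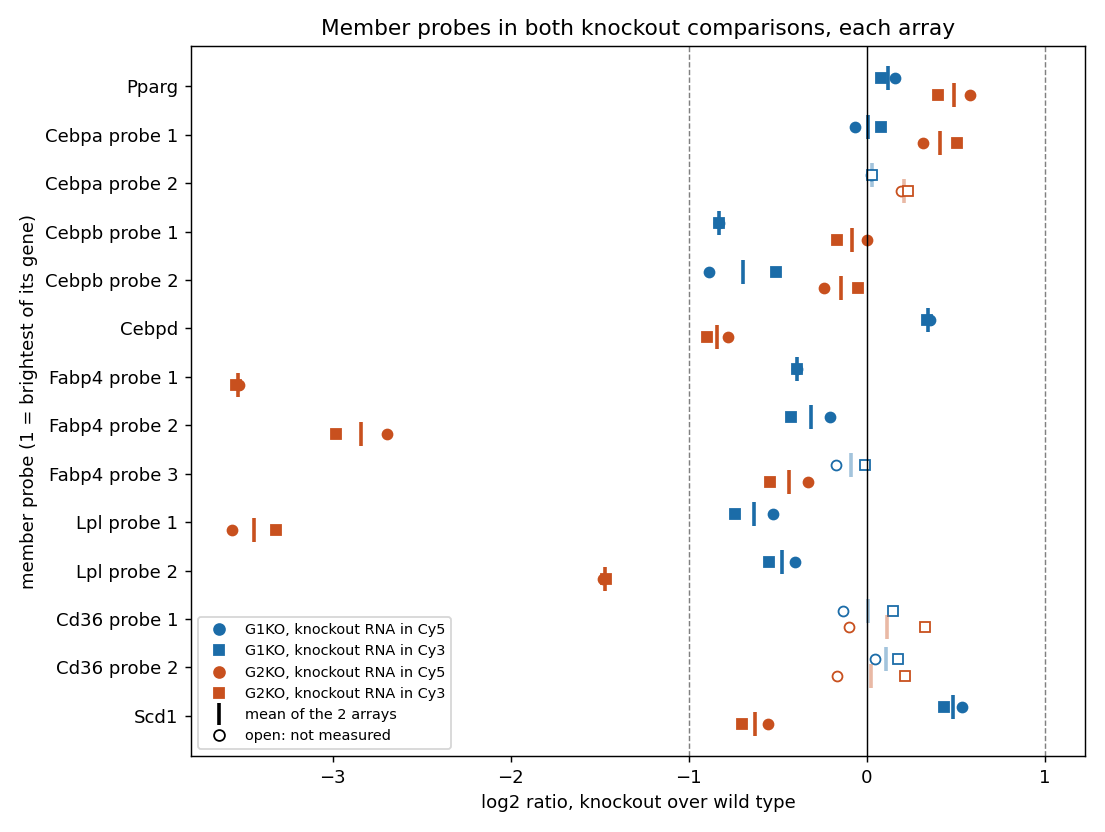
Log2 ratio of knockout over WT for the 14 member probes (x axis; dashed lines at -1 and 1), with G1KO in blue and G2KO in orange, circles for the array with knockout RNA in Cy5, squares for Cy3 and bars for the mean of the 2 arrays. Open symbols are probes that were not measured. The leading Fabp4 and Lpl probes of G2KO lie at -3.53 and -3.44, far from the other members, while no member passes 1 or -1 in G1KO.

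Pparg, the nuclear receptor that directs fat cell formation, was read by 1 probe printed 10 times per array (chromosome 6, plus strand, 115455814 to 115455873 on mm8, the build of the array). In G1KO its log2 ratio was 0.16 with the knockout RNA in Cy5 and 0.08 with it in Cy3, a mean of 0.12 ± 0.06. In G2KO the arrays gave 0.58 and 0.40, a mean of 0.49 ± 0.13 or 1.40-fold. The copies on an array bear on the precision within it: the 10 spots ran from 0.11 to 0.28 and from 0.02 to 0.14 on the G1KO arrays, and from 0.54 to 0.62 and from 0.34 to 0.46 on the G2KO arrays. All 40 spots were thus above 0 and none reached 1, and such copies give no spread between cultures. Pparg was not called in either comparison.

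Cebpa encodes C/EBPα, the partner of PPARγ in the later phase of adipogenesis. Its brighter probe (chromosome 7, plus strand, 34830258 to 34830317) was dim in every culture. The log2 ratios were -0.07 and 0.08 in G1KO, on both sides of 0, and 0.32 and 0.50 in G2KO, a mean of 0.41 ± 0.13. The second probe (34829102 to 34829161) was not measured in either pair and was well above background on 1 array in G2KO alone. The G2KO ratio of the brighter probe depended on the processing: with the scanner's own ratio or the series table it was up to 1.11 and was called.

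Cebpb and Cebpd, the early C/EBP factors, were bright in every culture, and the larger difference of each from WT lay in a different pair. At the brighter Cebpb probe (chromosome 2, plus strand, 167381552 to 167381610) the log2 ratio in G1KO was -0.83 on each array, 1.78-fold lower than WT. The second probe (167381014 to 167381073) gave -0.88 and -0.51, a mean of -0.70 ± 0.26. In G2KO the same probes gave -0.08 ± 0.12 and -0.15 ± 0.14, which is about the size of the technical SD, and the first changed sign with median centring (0.04). Cebpd, at its probe on chromosome 16 (plus strand, 15801944 to 15802003), had the opposite order. It gave 0.35 and 0.34 in G1KO, a mean of 0.35 ± 0.01, and -0.78 and -0.90 in G2KO, a mean of -0.84 ± 0.08 or 1.79-fold lower. None of these values was called. Of all measured probes, 5.6% were at least as low as the brighter Cebpb probe in G1KO, and 5.88% at least as low as Cebpd in G2KO.

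Fabp4, the fatty acid carrier of fat cells and macrophages, was lower in G2KO than in its WT by a wide margin. Before any correction its brightest probe (chromosome 3, minus strand, 10186983 to 10187043) read 1223.9 and 2761.2 in the WT of the G2KO pair, in Cy3 and Cy5, and 97.9 and 197.6 in G2KO, against local backgrounds of 26 to 34. The normalised log2 ratios were -3.53 and -3.54, a mean of -3.53 ± 0.01 or 11.6-fold lower. The second probe (10187065 to 10187794) gave -2.70 and -2.98, a mean of -2.84 ± 0.20 or 7.16-fold lower, and was called too. The third probe (10190974 to 10191033) was dim, and was not well above background in G2KO on either array, and there the WT signal was at least 1.35-fold higher. In G1KO the brightest probe gave -0.39 on each array, and the second gave -0.32 ± 0.16. Neither was called, and the third was not measured. Of 25430 measured probes, 67 were at least as low in G2KO as the brightest Fabp4 probe, or 0.263%.

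Lpl, which encodes lipoprotein lipase, followed with a value of nearly the same size. Its brighter probe (chromosome 8, plus strand, 71835357 to 71835416) read 739.6 and 1760.4 before correction in the WT of the G2KO pair and 67.9 and 95.2 in G2KO, in Cy3 and Cy5, against local backgrounds of 25 to 34.5. The log2 ratios were -3.57 and -3.32, a mean of -3.44 ± 0.17 or 10.9-fold lower. The second probe (71830140 to 71830199) gave -1.48 and -1.46, a mean of -1.47 ± 0.01 or 2.77-fold lower. Both were called, although the second was well above background on only 1 array in G2KO. In G1KO the probes gave -0.63 ± 0.15 and -0.47 ± 0.10, lower than WT on each array and not called. In the G2KO comparison 76 of 25430 probes, or 0.299%, were at least as low as the brighter Lpl probe. The offset used in the background correction holds back ratios of dim signals, and with the scanner's own ratio the Lpl probes gave -4.77 and -3.27 and the Fabp4 probes -4.19 and -3.43. The third Fabp4 probe was called under that ratio as well, at -2.97.

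Cd36, the fatty acid translocase, could not be compared. Neither of its probes (chromosome 5, minus strand, 17294606 to 17294665 and 17295116 to 17297548) was well above background in any culture on any array. Raw readings of the first probe were 37.3 to 48.4 over the 8 channels, against local backgrounds of 26 to 36. Scd1, the desaturase, was bright and was not called. At its probe on chromosome 19 (minus strand, 44448208 to 44448267) the log2 ratio was 0.53 and 0.44 in G1KO, a mean of 0.48 ± 0.07, and -0.56 and -0.70 in G2KO, a mean of -0.63 ± 0.10. Scd1 and Cebpd were thus the members whose arrays all lay above 0 in G1KO and all below 0 in G2KO. The difference between the pairs was not tested.

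The level of each member was then followed over the 4 cultures, as the log2 signal of its brightest probe after scaling between arrays. Each culture was read once in each dye, and levels are compared for 1 probe across cultures and never between genes. Fabp4 was at 10.94 ± 0.08 in the WT of the G2KO pair, 9.14 ± 0.02 in the WT of the G1KO pair, 8.75 ± 0.02 in G1KO and 7.41 ± 0.06 in G2KO. Lpl was at 12.29 ± 0.08 in the WT of the G1KO pair, 11.65 ± 0.07 in G1KO, 10.24 ± 0.19 in the WT of the G2KO pair and 6.80 ± 0.36 in G2KO. G2KO was lowest in both orders. Against the WT of the other pair in the same dye, the log2 difference of G2KO was -1.73 ± 0.09 for Fabp4 and -5.49 ± 0.45 for Lpl. The direction in G2KO thus held against either WT, while its size did not. G1KO against the WT of the G2KO pair gave -2.20 ± 0.10 for Fabp4 and 1.41 ± 0.12 for Lpl. A level below the WT of the G2KO pair was thus not particular to G2KO for Fabp4.

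Pparg was ordered by pair more than by genotype: 10.57 in G1KO and 10.45 ± 0.06 in its WT, then 9.51 ± 0.06 in G2KO and 9.02 ± 0.07 in its WT. Cebpb stood highest in the WT of the G1KO pair (14.48), then G1KO (13.65), the WT of the G2KO pair (13.36) and G2KO (13.28), of which the last pair of cultures overlapped. Cebpd ran from 13.92 in the WT of the G2KO pair through 13.58 in G1KO and 13.24 in its WT to 13.08 in G2KO. Scd1 ran from 12.36 in the WT of the G2KO pair through 11.95 in G1KO and 11.73 in G2KO to 11.46 in the WT of the G1KO pair. Cebpa stood highest in G2KO at 7.08 and ran through 6.67 in its WT to 6.48 in G1KO and 6.47 in its WT, the latter overlapping.

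**Figure D2:**
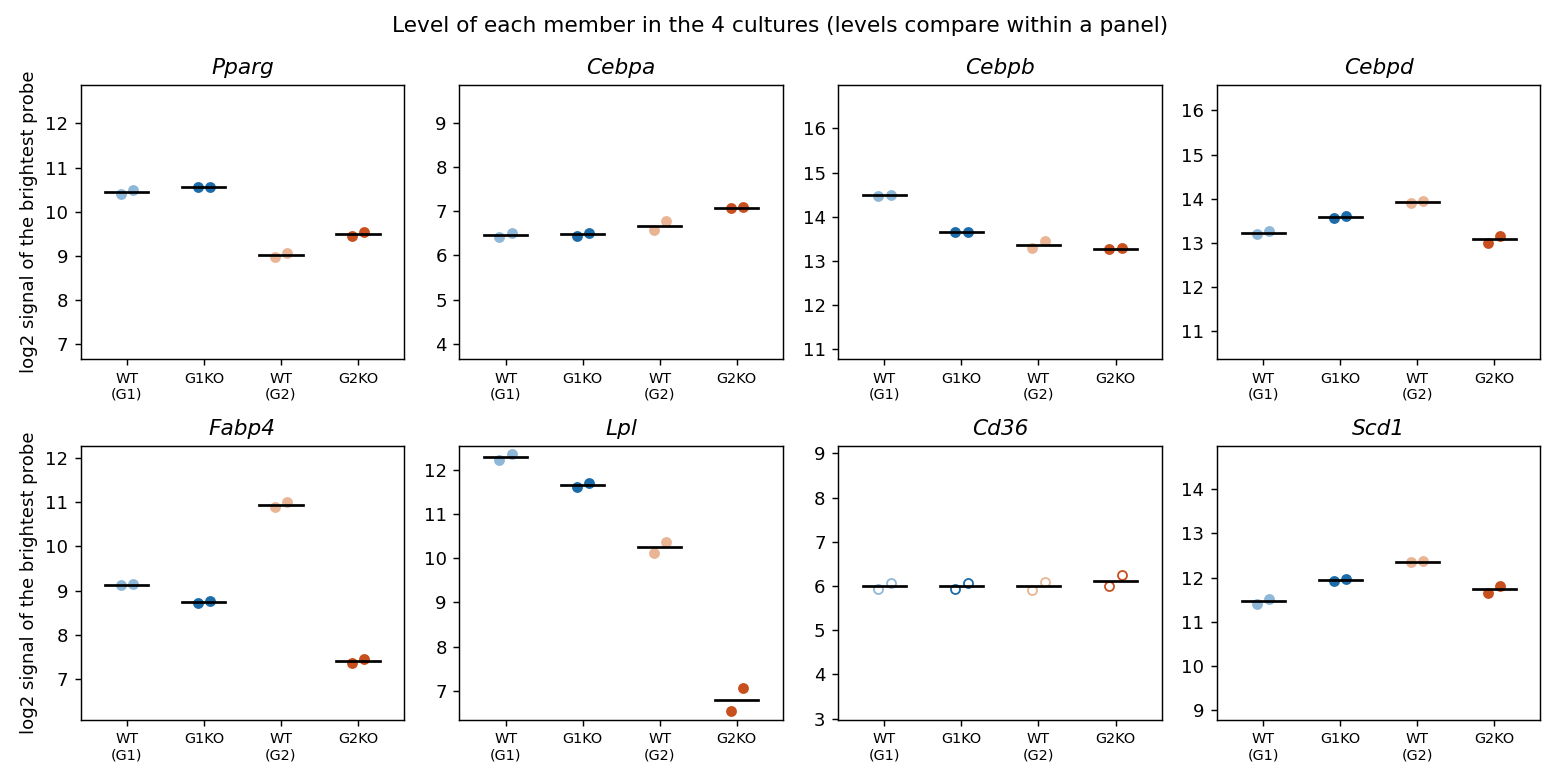
Log2 signal of the brightest probe of each member in the 4 cultures; points are the 2 arrays, bars their mean, open points arrays of a probe never well above background (Cd36), and every panel spans the same number of log2 units. Lpl and Fabp4 stand at 6.80 and 7.41 in G2KO, and Pparg separates the pairs, with WT levels of 10.45 and 9.02.

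The WT cultures themselves differed in these genes. The WT of the G2KO pair minus the WT of the G1KO pair gave log2 differences of 1.80 ± 0.05 for Fabp4, -2.05 ± 0.11 for Lpl, -1.43 ± 0.01 for Pparg and -1.12 ± 0.12 for Cebpb, each at least 1 in size in both dyes, and 0.69 for Cebpd, 0.90 for Scd1 and 0.20 for Cebpa, which were not. By that rule 4 of 7 measured member genes and 7 of 11 measured member probes were called, against 11.0% of 26033 probes measured in either WT. With outlier spots kept, the count was 6 probes, as the brighter Cebpb probe dropped below 1 in a dye. For Pparg, Cebpb and Scd1 the WT cultures differed by more than knockout and WT did in either pair, and for Cebpd by more than in G1KO and less than in G2KO. At the brightest probes of Fabp4 and Lpl the WT difference lay between the G1KO and the G2KO ratios in size, but at the second Lpl probe the WT difference, -1.97 ± 0.14, was larger than the G2KO ratio of -1.47. That probe was dim in G2KO, well above background on only 1 array, and its G2KO ratio was -3.27 with the series table. Its WT difference ran from -2.14 to -1.87 over the alternatives, so the order of the 2 sizes depended on the processing. At a threshold of 4-fold in each dye none of the member probes was called between the WT cultures. Both WT cultures held the Y-linked Eif2s3y, at log2 signals of 12.39 and 11.88. The cause of the difference between them was not tested.

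Both called members were set beside the genes of most similar pattern, by Euclidean distance over the 4 log2 ratios, 1 per array, among 21127 probes measured in both pairs. For Fabp4 the nearest named genes were Col8a2, a collagen chain (distance 0.43; log2 ratios of -0.14 in G1KO and -3.45 in G2KO), Lpl (0.44), and Ctsz, a lysosomal protease (0.48; -0.40 and -3.77). For Lpl they were Mmp3, a secreted matrix metalloproteinase (0.37; -0.63 and -3.22), Fabp4 (0.44), and Thy1, a surface glycoprotein of fibroblasts (0.46; -0.60 and -3.28). The brightest Thy1 probe, a different one, gave -0.19 ± 0.06 in G1KO and -3.22 ± 0.18 in G2KO. The likeness rests on 4 arrays of 4 cultures and is a description.

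The wider adipogenic network was read from gene lists, each gene by its brightest probe. The counts stand beside the 5.79% and 6.37% of all measured probes called in G1KO and G2KO, and no list was tested. Of 24 regulators that promote adipogenesis, 21 were measured in G1KO, with 3 called higher and 3 lower (median 0.12), and 20 in G2KO, with none called higher and 3 lower (median -0.13). Those called lower were Bmp4, a secreted signal that commits precursors to the fat lineage (-1.40 ± 0.04 in G1KO and -3.06 ± 0.06 in G2KO), the zinc-finger factor Klf4 (-1.09 ± 0.08 and -1.25 ± 0.11), Klf9 in G1KO (-1.20 ± 0.08; -0.51 in G2KO) and the insulin receptor substrate Irs1 in G2KO (-1.96 ± 0.28; -0.43 in G1KO). Those called higher in G1KO were Prdm16, a regulator of brown fat identity (2.34 ± 0.06), Egr2 (1.65 ± 0.06) and the coactivator Ppargc1b (1.12 ± 0.05). Prdm16 was not measured in the G2KO pair. Rxra, the partner receptor with which PPARγ binds DNA, had 0.12 ± 0.06 and -0.45 ± 0.11, and Srebf1, a regulator of lipid synthesis, 0.07 ± 0.15 and 0.19 ± 0.15.

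Among 21 genes listed as inhibitors of adipogenesis, G1KO had 5 called higher and 2 lower of 19 measured (median 0.19). G2KO had 1 higher and 6 lower of 20 (median -0.23). The role of the listed genes, Id2 and Wnt5b among them, was not tested, and the counts depend on the listing. Dlk1, the preadipocyte protein Pref-1, had 1.73 ± 0.11 in G1KO and -1.33 ± 0.11 in G2KO at its brightest probe, and its other probe gave 1.63 and -0.74, the latter not called. Sox9, a cartilage and precursor factor, had 1.32 ± 0.19 and -3.08 ± 0.12. Twist2 had 1.94 ± 0.01 and -2.49 ± 0.07, and Foxo1 1.10 ± 0.02 and -1.53 ± 0.07. These 4 genes were called in opposite directions in the 2 pairs, and the difference between pairs was not tested. With median centring Dlk1 and Foxo1 lost both calls and Sox9 that in G1KO, which left Twist2 with opposite calls. In G2KO, Foxc2 (-3.56 ± 0.06; 0.82 in G1KO, not called) and Wnt10b (-1.30 ± 0.07; not measured in the G1KO pair) were called lower and Id2 (1.64 ± 0.10) higher. In G1KO, Zfp521 was called higher (1.23 ± 0.25) and Gata3 (-1.36 ± 0.04) and Wnt5b (-1.14 ± 0.09) lower. The second probe of Wnt5b gave -0.38, and that of Foxo1 0.94 in G1KO, neither of them called.

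Fatty acid uptake and binding held 27 listed genes besides Fabp4, Lpl and Cd36. In G1KO 23 were measured, with 1 called higher and 1 lower (median 0.24), and in G2KO 21, with 2 higher and 3 lower (median -0.25). Of the relatives of Fabp4, 2 were measured in G2KO, and both were called lower: Fabp3, the form of heart and muscle, at -1.95 ± 0.04 and Fabp5 at -1.12 ± 0.08, with 0.78 and 0.68 in G1KO, not called. Fabp7 was not measured in the G2KO pair (0.84 ± 0.06 in G1KO, not called), and Fabp1 was measured in neither pair. With median centring the calls of Fabp5, Acsl1, Vldlr, Slc27a1 and Angptl4 were lost, and that of Fabp3 was kept. Acsl1, which activates fatty acids for metabolism, was called lower in G2KO at its brightest probe (-1.11 ± 0.02), and its other probes gave -0.52 and -0.62. Angptl4, a secreted inhibitor of lipoprotein lipase, was called lower in G1KO (-1.78 ± 0.17) and higher in G2KO (1.47 ± 0.16). Vldlr, a lipoprotein receptor, was called higher in G2KO (1.09 ± 0.05; 0.53 in G1KO), with 0.87 at its other probe. Slc27a1, a fatty acid transporter, was called higher in G1KO (1.27 ± 0.01; -0.84 in G2KO), with 0.59 at its other probe.

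Genes of fat storage, synthesis and oxidation were read the same way. Of 19 mature adipocyte genes on the array, 8 were measured in each pair and none was called in either, with medians of 0.24 and -0.13. Adipoq, the fat cell hormone adiponectin, and Plin1, the coat protein of its lipid droplets, were not measured in either pair. Of 20 genes of desaturation and fatty acid synthesis, 15 were measured in G1KO, with the elongase Elovl6 called higher (1.33 ± 0.19) and the elongase Elovl7 lower (-2.94 ± 0.09; -2.24 at its other probe), and 16 in G2KO with none called. Of 16 genes of fatty acid oxidation, 15 were measured in each pair, none was called in G1KO, and in G2KO Pdk4, a kinase that shifts fuel use from glucose to fat, was called lower (-1.74 ± 0.09). None of 5 relatives of the C/EBP factors was called in either pair. Medians of these 3 lists lay between -0.12 and 0.00 in both pairs.

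**Figure D3:**
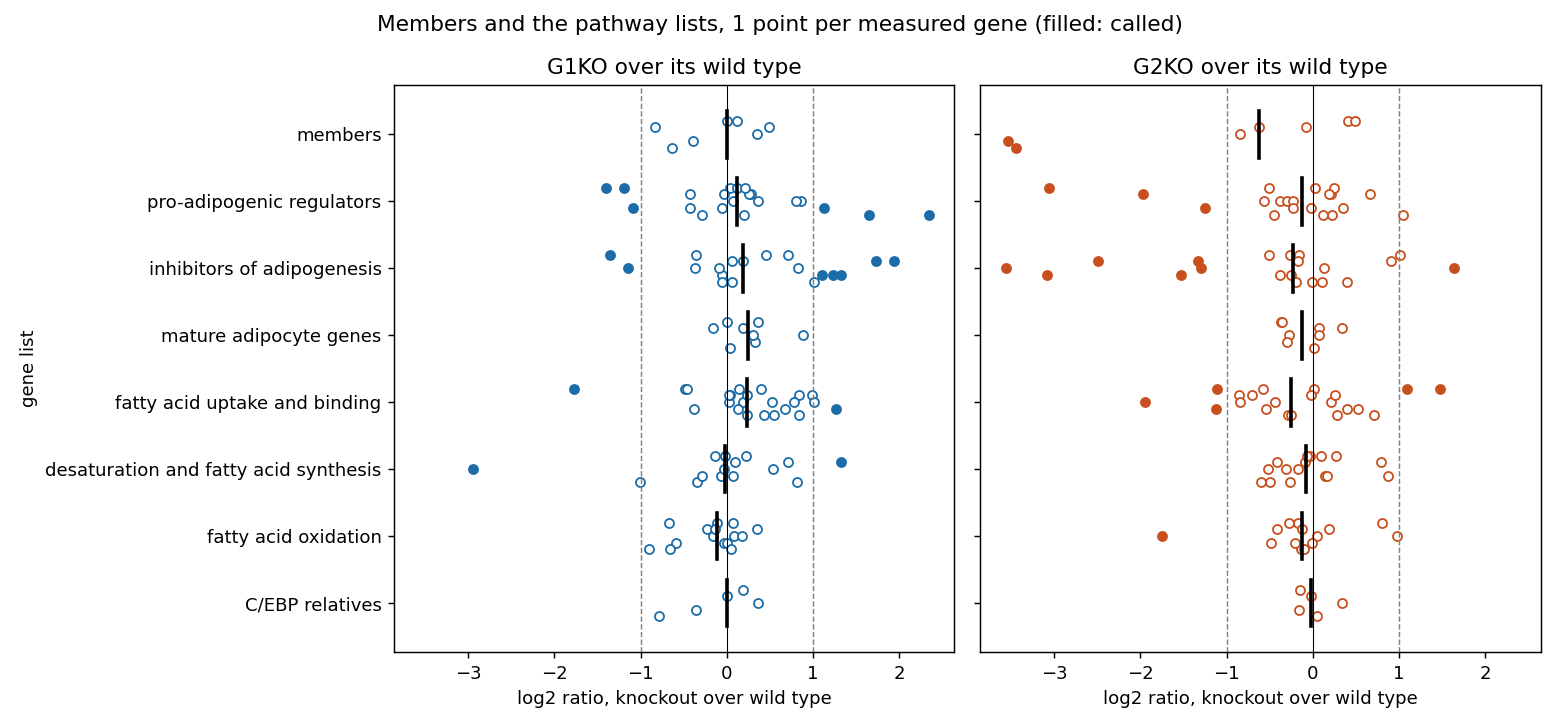
Log2 ratio of knockout over WT (x axis; dashed lines at -1 and 1) for the members and 7 gene lists, with G1KO on the left and G2KO on the right; each point is the brightest probe of a measured gene, filled where called, and bars are list medians. Among members, the filled points are Fabp4 and Lpl in G2KO. Mature adipocyte genes show no filled point in either panel.

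Markers of cell types were read beside these results. Of 7 adipocyte markers on the array at most 1 was well above background in any culture, and Adipoq, Cidec, Cfd and Lep were at background in all 4. Slc2a4, the insulin-responsive glucose transporter, was above background in G1KO and in both cultures of the G2KO pair, and Plin1 and Retn on 1 array in each culture of the G1KO pair. Fabp4 is also a macrophage and endothelial gene. Of 8 macrophage markers, Ptprc, Adgre1, Aif1 and Itgam were at background in every culture, Cd14 and Cd68 were above it in all 4, Csf1r in the G1KO pair, and Lyz2 in all but G1KO. In G2KO none was called, with Cd14 at 0.70 ± 0.04 and Lyz2 at -0.39 ± 0.02. Of 7 endothelial markers, Pecam1, Cdh5 and Cldn5 were at background in every culture, Gpihbp1 was above it in all 4 and Kdr in the G1KO pair. Emcn was called lower in G1KO (-2.65 ± 0.08) and had -0.78 ± 0.03 in G2KO, where the WT signal was at least 1.61-fold higher; it was called in G2KO with a normexp offset of 16, the scanner's own ratio or the series table. Summed signals in the WT and the knockout were 1341 to 1383 and 1009 to 1081 for macrophage markers in the G1KO pair, and 1372 to 1391 and 1475 to 1476 in the G2KO pair. For endothelial markers they were 1237 to 1298 and 743 to 758, and 563 to 571 and 511 to 527. Such sums add different probes, several of them at background, and do not measure the content of a cell type. Fibroblast markers were all well above background in every culture, but 6 of 10 were called lower in G2KO (median -1.36), among them Pdgfra, the growth factor receptor of mesenchymal precursors (-4.63 ± 0.09; 0.92 ± 0.16 in G1KO and not called), Thy1 (-3.22 ± 0.18), Col3a1 (-2.90 ± 0.14), Col1a2 (-2.31 ± 0.42), Col1a1 (-1.38 ± 0.02) and Dcn (-1.34 ± 0.03). With median centring Col1a1, Col1a2 and Dcn lost the call, which left 3 of 10. Their summed signal was 183263 to 259793 in G2KO and 552231 to 632348 in its WT. In G1KO 2 fibroblast markers were called higher, Pdgfrb (1.09 ± 0.01) and Lum (1.31 ± 0.04), and 1 lower, Dcn (-4.05 ± 0.12). A lower Dcn was thus not particular to G2KO, and its ratio was larger in size in G1KO. The median of the 10 in G1KO was -0.21, with sums of 311452 to 359441 against 429529 to 462766 in its WT. Of 6 mesothelial markers 5 were called lower in G1KO and 1, Krt19, higher, with sums of 25355 to 31112 against 200484 to 240863 in its WT. In the G2KO pair 2 were measured, with Msln called higher (1.60 ± 0.20) and Krt19 lower (-1.40 ± 0.16), and sums were 1675 to 1759 in the WT and 3790 to 4116 in G2KO. Of 5 epithelial markers, 3 were measured in G1KO, and Krt8 was called lower (-1.14), a call lost with median centring. In the G2KO pair 1 was measured and none was called. Epithelial sums were 33072 to 33302 in the WT and 31016 to 31650 in G1KO, and 361 to 384 in the WT and 331 to 358 in G2KO. In whole cultures, fewer cells of a type and less RNA per cell cannot be told apart. The part that these differences in marker transcripts play in the ratios of Fabp4, Lpl and Cebpb was not tested.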

How the data were processed

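RNA of 4 MEF cultures was hybridised on 4 two-colour Agilent whole-genome mouse arrays, 2 per comparison with dyes exchanged, on 1 slide. The deposited scanner files hold spot and background intensity in each channel on a linear scale, without normalisation. They also hold the log10 ratio that the authors obtained from Agilent Feature Extraction (10.5.1.1 per the file headers, 9.1 per the submitters' processing notes), after its background subtraction and dye normalisation, and the flags for outlying, saturated and dim spots. The authors' deposited series table holds the same log10 ratios turned to knockout over WT, and p-values of single arrays in the scanner files were not used. Intensities were corrected by normexp with an offset of 50, control and outlier spots were left out, and each array was normalised by loess (limma 3.58.1, R 4.3.3). Levels were further scaled between arrays (Aquantile). Spots of a probe were averaged, swapped ratios changed sign, and the mean of 2 arrays is reported, whose number limits the precision. A fold against RNA below the background flag on both arrays is a bound: the brighter mean over the mean, per array, of whichever is higher, the dim signal or the faintest signal past the flag. No spot was saturated. Steps were tested on simulated data.

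The 8 genes, the lists and the markers were chosen with earlier results of these data known. Named were all member probes, list genes called at their brightest probe, 6 fixed genes (Rxra, Srebf1, Dlk1, Adipoq, Plin1, Pdgfra), the 3 nearest patterns of each called member, and label checks. Second probes and the comparison of WT cultures were added after seeing the data. RefSeq (GRCm38.p6) gave names for 33102 of 41174 probes and the promoter windows. Probes were placed by the array design, on mm8, without conversion. The exon read by a probe was not analysed here. Alternatives covered background correction, normalisation, filter, threshold and each array alone. Arrays of the double knockout were not analysed here.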

Additional observations from a re-analysis of the deposited data

Results flagged for a closer look

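Several genes lay on one side of WT on each array of G1KO and on the other side on each array of G2KO. The differences were not tested, as each genotype was 1 culture. For Cebpd the log2 ratios were 0.35 (G1KO) and -0.84 (G2KO), a difference of 1.18, and Scd1 had 0.48 and -0.63, a difference of 1.11. Neither was called in either pair.

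Among the listed genes called in both pairs, Twist2 differed by 4.43 (1.94 in G1KO and -2.49 in G2KO), Sox9 by 4.40 (1.32 and -3.08), Dlk1 by 3.05 (1.73 and -1.33) and Foxo1 by 2.63 (1.10 and -1.53). Angptl4 differed the other way, by -3.25 (-1.78 and 1.47). With median centring Dlk1, Foxo1 and Angptl4 lost both calls and Sox9 that in G1KO. Of the cell type markers, Krt19 differed by 4.29 (2.90 and -1.40) and Msln by -4.38 (-2.79 and 1.60).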

How the results depend on the processing

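The count of member probes called in G2KO was 4 and ran from 3 to 6 over the alternatives: 6 with the scanner's own ratio or the series table, 5 at a threshold of 1.5-fold, and 3 at 4-fold or where both genotypes had to be above background. In G1KO it was 0, and 1 at 1.5-fold. The brightest Fabp4 probe stayed between -4.19 and -3.48 and the brighter Lpl probe between -4.77 and -3.32 in G2KO, called throughout. Counts over all probes, 1479 in G1KO and 1619 in G2KO, moved to 813 and 955 with median centring in place of loess, 2855 and 3396 with the scanner's ratio, 2849 and 3392 with the series table, 385 and 467 at 4-fold, and 3340 and 3714 at 1.5-fold. Of the genes called in the pathway lists, 17 in G1KO and 16 in G2KO, none changed sign under the 10 settings at the 2-fold threshold. With median centring 13 and 10 of them lost the call, leaving Prdm16, Egr2, Twist2 and Elovl7 in G1KO and Bmp4, Sox9, Foxc2, Twist2, Fabp3 and Pdk4 in G2KO, and 0 lost it under another setting; the cause was not tested. Of the fibroblast markers called, 3 in G1KO and 6 in G2KO, 2 and 3 kept the call with median centring. Between the WT cultures, where every alternative was chosen after seeing the data, the count of member probes called was 7, 0 at 4-fold, 9 at 1.5-fold, and 6 or 7 under the other alternatives. The count over all probes was 2870, and 898 and 6135 at those thresholds. No paired analysis was possible because each genotype was 1 culture. Dim probes limit the precision: the third Fabp4 probe, the second Cebpa probe and both Cd36 probes carry only bounds or no value.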
